A study of Mus musculus with 17 samples.

Results

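C1qa, C1qb and C1qc, which encode the 3 chains of complement component C1q, were examined with 6 other genes that are used to describe lung macrophages other than alveolar ones: Mrc1, Cd163, Ms4a7, Apoe, Cx3cr1 and Folr2. These 9 genes were taken by symbol from a total RNA-Seq count table of 55421 genes, and each was set beside Marco, an alveolar macrophage gene, to see whether it moved with Marco or apart from it. The libraries were made from primary lung fibroblast cultures of 17 mice, 1 library per mouse. Every mouse, controls included, was Ephb4 f/f; Col1a2-CreERT2. At 4 weeks of age the Ephb4 CKO mice received 4-hydroxytamoxifen at 1 mg a day for 5 days, and the Ephb4 control mice received corn oil. At 6 weeks of age either 1.2 U/kg bleomycin, which injures the lung, or PBS was instilled into the trachea, and lungs were collected on day 14. The groups were 4 control PBS, 4 control bleomycin, 5 CKO PBS and 4 CKO bleomycin mice. The Cre was driven by the Col1a2 promoter, so the deletion was directed at Col1a2-expressing cells and not at macrophages, and the cells had been through 1 passage in culture before RNA was extracted.

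C1q is the recognition unit of the classical complement pathway. It binds antibody complexes and dying cells, and in most tissues it is made by resident macrophages and not by the liver, which makes many other complement proteins. Alveolar macrophages, which live in the airspaces, carry Marco, a scavenger receptor for particles and bacteria. Interstitial macrophages lie in the tissue between airspace and vessel and are usually recognised by C1q, Apoe and, in subsets, Folr2, Cd163, Mrc1 or Cx3cr1. Mrc1 is also strongly expressed by alveolar macrophages.

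Each library held between 66540022 and 120554468 counts. Levels are given as CPM, counts scaled to a common library size with TMM, which sets aside the most divergent genes when it sets the size. Genes with over 10 CPM in at least 2 libraries entered the tests, which kept 10481 genes. Of the 9 genes 8 were kept, and Cd163 was not. The cultures were rich in macrophage RNA: the summed level of 14 macrophage genes, among them Lyz2 and Cd68, was 10461 to 45287 CPM in control PBS, 1408 to 18607 in control bleomycin, 20838 to 37461 in CKO PBS and 20372 to 43963 in CKO bleomycin. The summed level of 14 fibroblast genes was 14.4 to 7578, 6059 to 12209, 33.7 to 1999 and 17.0 to 1654 CPM in the same order. The fibroblast range of control bleomycin lay above those of both CKO groups. Ephb4 was at 24.2, 4.00, 33.4 and 2.32 CPM in control PBS and at 65.1, 13.1, 35.3 and 40.5 CPM in control bleomycin mice 1 to 4. It was at 7.70, 23.6, 8.97, 4.01 and 4.05 CPM in CKO PBS and 14.0, 9.53, 10.1 and 4.93 CPM in CKO bleomycin. The log2 fold change of Ephb4 in CKO versus control was -2.0 ± 0.79 (SE; adjusted p = 0.22 by edgeR's quasi-likelihood test, Benjamini-Hochberg) after bleomycin and -0.73 after PBS. Levels of Xist and of Y chromosome genes went against the labelled sex of 3 libraries, control bleomycin mouse 2 and CKO bleomycin mice 1 and 2, so the main values that rest on them are also given without them. In these bulk libraries fewer macrophages and less RNA of a gene per macrophage cannot be told apart.

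The interstitial name was only partly borne out by other genes of that kind. Of 18 such genes listed, 15 passed the filter. The most abundant, Selenop, had a median of 261 CPM, and Selenop, Cd14, Tmem176b and Stab1 were over 10 CPM in all 17 libraries. Others were low. Cd163 never exceeded 1.20 CPM and had no count in 4 libraries. Timd4 never exceeded 1.06 CPM, Ccr2, which marks recruited monocytes, never exceeded 8.39 CPM, and Cd209f had no count in 16 of 17 libraries. Lyve1, a hyaluronan receptor on perivascular interstitial macrophages, ranged from 0.328 to 28.9 CPM with a median of 3.68. Broader genes of resident macrophages were well detected, with medians of 147 CPM for the efferocytosis receptor Mertk, 167 CPM for Siglec1 and 50.9 CPM for the chemokine Pf4. Alveolar macrophage genes also differed in level. Medians were 883 CPM for Chil3, 630 CPM for Itgax and 990 CPM for Atp6v0d2, but 18.0 CPM for Ear1, 4.18 for Cidec, 4.09 for Car4 and 3.79 for Krt79. The genes are therefore called C1q and associated macrophage genes below, without assigning them to a cell type.

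The 3 C1q genes lie side by side on the minus strand of chromosome 4 in GRCm38, between positions 136880129 and 136898803, a span of 18675 bp, in the order C1qb, C1qc, C1qa along the chromosome. RefSeq promoter windows (GRCm38.p6; 300 bases, of which 250 lie before each start) were matched by symbol for 8 of the 9 genes, all except C1qa, and for Marco. The 250 bases before the start are shown for C1qb and C1qc, whose levels moved together, and for Marco, with which they are compared. Capitals mark GAGGAA, the core letters of sites for the macrophage factor PU.1, and TGCTGA, one side of a MAF site, on either strand, read 5′ to 3′ along the minus strand.
C1qb, chr4:136886201-136886450: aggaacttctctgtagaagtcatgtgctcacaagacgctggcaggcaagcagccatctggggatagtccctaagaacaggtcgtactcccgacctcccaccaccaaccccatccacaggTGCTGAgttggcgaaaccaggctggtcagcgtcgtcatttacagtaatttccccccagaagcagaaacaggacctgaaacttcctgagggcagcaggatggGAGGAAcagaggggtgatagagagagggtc
C1qc, chr4:136892915-136893164: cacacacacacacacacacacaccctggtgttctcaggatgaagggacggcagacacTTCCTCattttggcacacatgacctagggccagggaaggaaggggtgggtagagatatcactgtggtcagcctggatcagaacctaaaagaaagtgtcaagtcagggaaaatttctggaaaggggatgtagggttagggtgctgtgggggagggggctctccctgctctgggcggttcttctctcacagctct
Marco, chr1:120505025-120505274: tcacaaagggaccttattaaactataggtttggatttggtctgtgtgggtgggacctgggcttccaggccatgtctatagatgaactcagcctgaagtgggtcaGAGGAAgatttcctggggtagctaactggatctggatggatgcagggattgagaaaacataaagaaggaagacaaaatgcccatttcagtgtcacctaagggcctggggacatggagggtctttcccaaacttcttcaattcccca
Counting from the start, GAGGAA begins at -30 before C1qb, at -193 before C1qc, where it lies on the other strand as TTCCTC, and at -146 before Marco. TGCTGA begins at -131 before C1qb and is not in the C1qc or Marco windows. Over the full 300 bases, GAGGAA was found on either strand in 28.3% of 32851 windows of the table, TGCTGA in 19.5% and TGACTCA, the AP-1 site, in 5.2%. GAGGAA was in at least one window of 5 of the 8 matched genes (C1qb, C1qc, Mrc1, Apoe and Ms4a7), TGCTGA in those of C1qb and Folr2, and TGACTCA in a window of Folr2. Apoe, Ms4a7 and Folr2 had more than 1 window, so counts per gene cannot be set directly against shares of single windows. The windows of Cd163 and Cx3cr1 held none of these letters. These are matches of letters that are common in promoters and were not tested as binding sites.

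Compared per kilobase of exon, the median level over 17 libraries was highest for Apoe, the lipid carrier apolipoprotein E, at 330.5 CPM per kb. Marco followed at 126 and Mrc1, the mannose receptor, at 80.1 CPM per kb. C1qb, C1qa and C1qc came next at 23.6, 20.8 and 13.1 CPM per kb. Ms4a7, a membrane protein of the tetraspanin-like MS4A family, had 2.997, Folr2, the folate receptor beta, 0.851, Cx3cr1, the fractalkine receptor, 0.519 and Cd163, the haemoglobin-haptoglobin receptor, 0.0323 CPM per kb. The ranges over libraries of neighbours in this order overlapped throughout, since the highest library of C1qa, for instance, had 908 CPM per kb and the lowest 2.36.

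**Figure D1:**
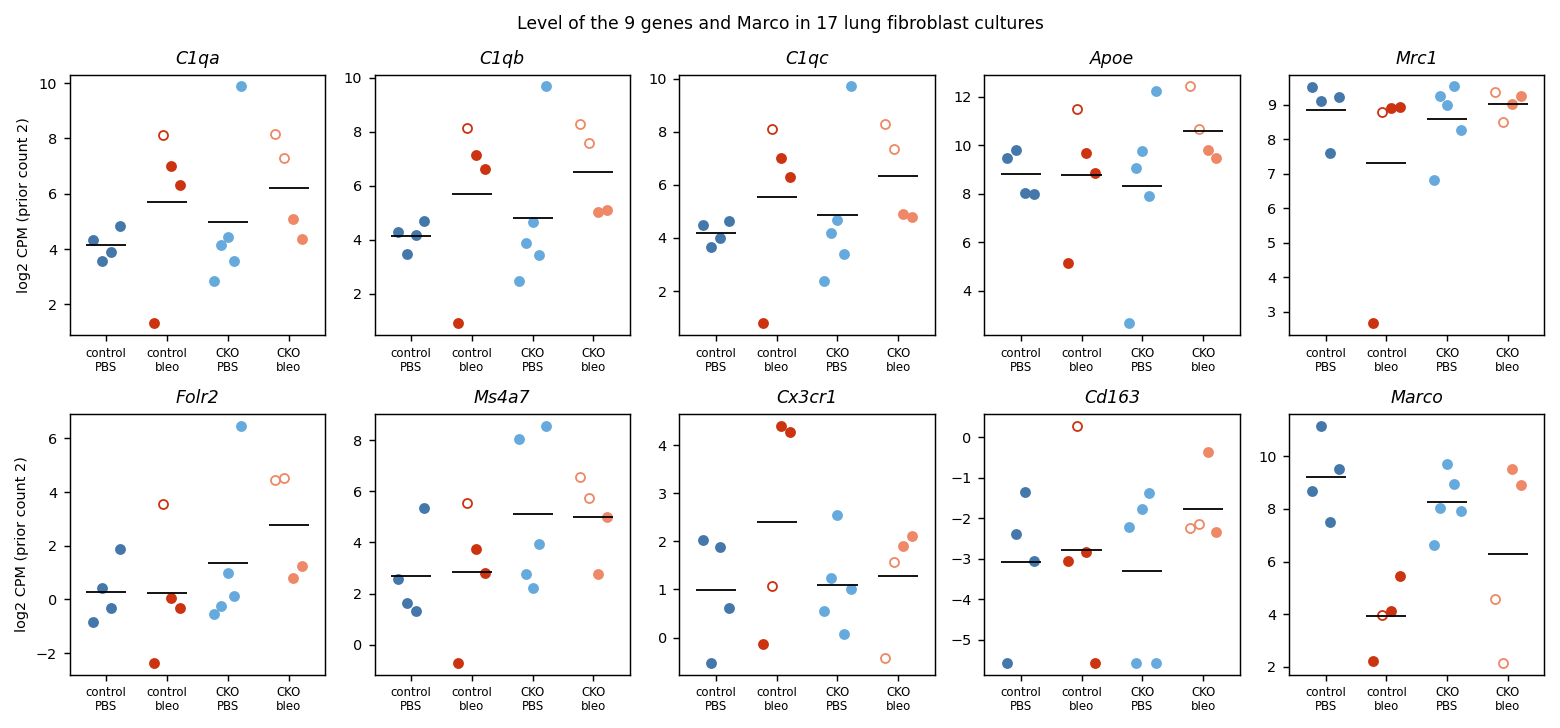
Level of each of the 9 genes and of Marco in every library (points; log2 CPM with a prior count of 2, so that libraries with no Cd163 count sit at the bottom), by group (control PBS, control bleomycin, CKO PBS, CKO bleomycin), with black bars for group means of log2 CPM and open circles for the 3 libraries whose sex genes go against their labels. Marco alone separates control PBS (180.2 to 2295 CPM) from control bleomycin (4.61 to 43.9 CPM), and the C1q genes spread from under 3 to over 250 CPM within control bleomycin.

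C1qa was at 19.9, 11.8, 14.7 and 28.7 CPM in control PBS mice 1 to 4. In control bleomycin it was at 2.46, 278, 128 and 78.9 CPM. Mice 2 to 4 of the bleomycin group lay above every PBS mouse, and mouse 1 lay below all of them. In CKO PBS, C1qa was at 7.15, 17.7, 21.6, 11.7 and 944 CPM. Mouse 5 of that group held the highest level of all 17 libraries, and the other 4 lay within or just below the range of control PBS. In CKO bleomycin it was at 283, 155, 33.8 and 20.3 CPM, with the 2 highest values in the libraries whose sex genes go against their labels. The group medians were 17.3 CPM in control PBS, 17.7 in CKO PBS, 94.4 in CKO bleomycin and 104 in control bleomycin. All pairs of neighbouring groups in this order overlapped.

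The 3 chain genes kept nearly the same proportion while the level of C1qa varied 384-fold. C1qb was at 19.3, 11.03, 18.3 and 25.7 CPM in control PBS, 1.85, 279, 140.2 and 97.3 in control bleomycin, 5.55, 14.5, 25.0, 10.7 and 820.2 in CKO PBS, and 314, 194, 32.5 and 34.0 in CKO bleomycin. The highest and the lowest library were those of C1qa. The ratio of C1qb to C1qa per kilobase had a median of 0.923 and ran from 0.718 in control bleomycin mouse 1 to 1.60 in CKO bleomycin mouse 4. The ratio of C1qc to C1qa had a median of 0.540 and ran from 0.372 to 0.732 in the same libraries. The SD of the log2 ratio was 0.30 for C1qb and 0.25 for C1qc, against 2.22 for the log2 level of C1qa itself. Pearson's r between pairs of the chain genes was 0.992 to 0.997 over 17 libraries, given as a description. All 17 libraries had at least 205 counts of each chain gene.

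Mrc1 was at 724, 551, 193 and 595 CPM in control PBS and 6.34, 438, 483 and 488 CPM in control bleomycin. It was 113, 608, 510.4, 738 and 309 CPM in CKO PBS and 659, 360.4, 518 and 609.7 CPM in CKO bleomycin. All libraries but control bleomycin mouse 1 were between 113 and 738 CPM, and the groups overlapped. The Mrc1 locus on chromosome 2 also holds the microRNA gene Mir511 on the same strand, whose reads the count may include. Apoe was at 707, 905, 260.2 and 256 CPM in control PBS and at 35.4, 2879, 811 and 458 CPM in control bleomycin. It was at 6.31, 532, 861, 242 and 4806 CPM in CKO PBS and at 5488, 1615, 902 and 701 CPM in CKO bleomycin. Its 3 highest libraries, CKO bleomycin mouse 1, CKO PBS mouse 5 and control bleomycin mouse 2, were also 3 of the 4 highest in C1qa and C1qb.

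Ms4a7 was at 5.89, 3.06, 2.46 and 40.4 CPM in control PBS and at 0.596, 46.1, 13.3 and 6.88 CPM in control bleomycin. In CKO PBS it was at 265, 6.80, 4.68, 15.2 and 378 CPM, and in CKO bleomycin at 93.6, 52.7, 6.83 and 32.3 CPM. CKO PBS mouse 1 was high for Ms4a7 and low for C1qa and Apoe, so these genes did not share all of their high libraries. Folr2 stayed at or under 3.66 CPM in 13 of 17 libraries and reached 89.0 CPM in CKO PBS mouse 5, 23.0 and 21.7 CPM in CKO bleomycin mice 2 and 1, and 11.7 CPM in control bleomycin mouse 2. These 4 libraries were the 4 highest in C1qa, and 3 of them are those whose sex genes go against their labels. Cx3cr1 was over 10 CPM only in control bleomycin mice 3 and 4, at 21.2 and 19.3 CPM, and between 0.675 and 5.82 CPM elsewhere. It therefore passed the filter only through that group, and its gene model overlaps Csrnp1, Gorasp1 and Xirp1 on the same strand, so its count is uncertain. Cd163 had 0 to 135 counts per library, so its values below are printed without being interpreted.

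Bleomycin was compared with PBS in control mice to ask whether these genes changed with Marco after lung injury. None of the 9 genes passed an adjusted p of 0.05 (edgeR's quasi-likelihood test over all genes), against 0 of the 10481 genes tested (0%). The C1q genes had the highest fitted differences of the 9: the log2 fold change was 2.70 ± 1.54 (SE; adjusted p = 0.418) for C1qa, 2.80 ± 1.54 (adjusted p = 0.408) for C1qb and 2.68 ± 1.54 (adjusted p = 0.422) for C1qc. Cx3cr1 had 2.13 ± 0.95 (adjusted p = 0.338), with an unadjusted p under 0.05, but it was tested only because 2 libraries of the group in which it was higher passed the filter, so this value is no support for a difference. None of the other 8 genes had an unadjusted p under 0.05, where 1494 genes, 14.3% of those tested, had one. Of the 7 genes kept apart from Cx3cr1, 6 were fitted higher after bleomycin, where 44.5% of all genes were, and the 3 C1q chains among them are not independent of one another. Mrc1 was fitted lower, at -0.54 ± 0.81 (adjusted p = 0.758). Apoe was at 0.98 ± 1.33 (adjusted p = 0.735), Folr2 at 1.12 ± 1.60 (adjusted p = 0.748), Ms4a7 at 0.37 ± 1.42 (adjusted p = 0.915) and Cd163, fitted without the filter, at 1.20 ± 1.46 (adjusted p = 0.812).

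Marco was 415, 2295, 180.2 and 728 CPM in control PBS and 4.61, 15.5, 17.5 and 43.9 CPM in control bleomycin, so that each bleomycin library lay below every PBS library. Its log2 fold change was -5.47 ± 1.40 (adjusted p = 0.268, edgeR). DESeq2 gave Marco an adjusted p of 0.000236, and with the animals' number series as a covariate edgeR gave a log2 fold change of -3.59. All control bleomycin mice and control PBS mouse 1 had animal numbers starting with 12. Control PBS mice 2 to 4 had numbers starting with 11, so bleomycin and number series largely coincided in control mice. Of the 10481 genes, 3.2% had all bleomycin libraries below all PBS libraries and 5.72% had them above. None of the 9 genes did either. Without the libraries whose sex genes go against their labels, the log2 fold change was 1.92 for C1qa, 2.12 for C1qb and -5.35 for Marco. The direction for C1qa was positive in all 17 fits that left out 1 mouse (1.90 to 3.16) and in the 14 other settings (1.43 to 3.42), but no setting brought its adjusted p under 0.05. Control bleomycin mouse 1, the lowest library for C1qa and Mrc1, also had the lowest summed macrophage genes, 1408 CPM. Without that mouse the log2 fold change was 3.16 for C1qa and -0.10 for Mrc1, and with macrophage genes as a covariate it was 3.42 for C1qa and 0.15 for Mrc1.

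**Figure D2:**
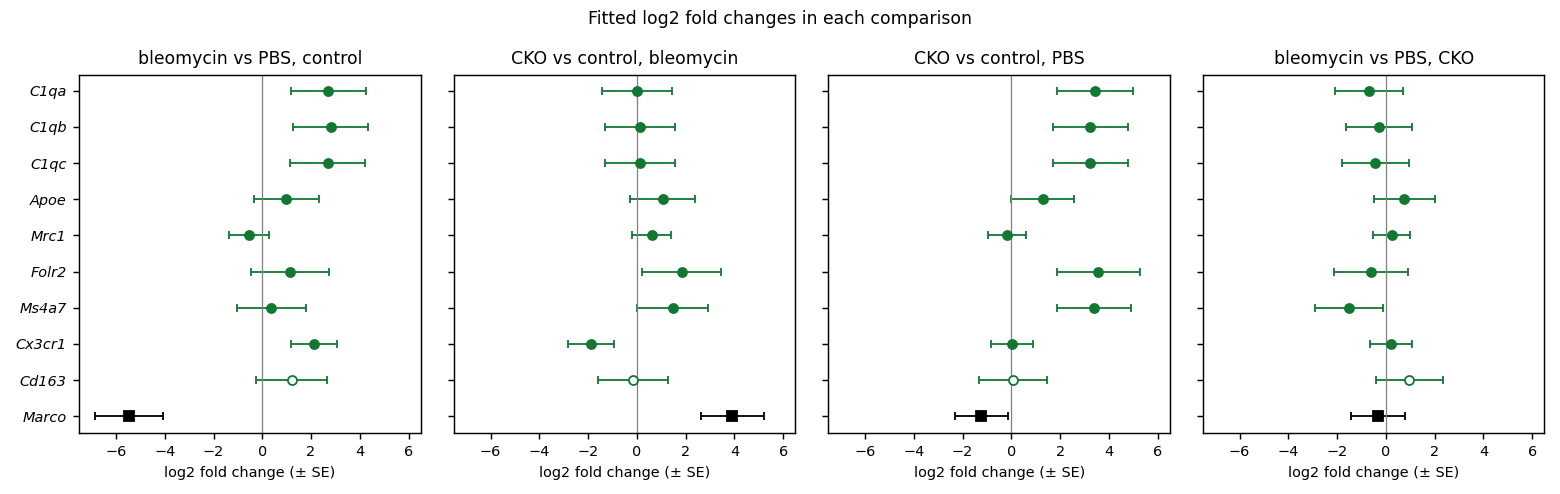
Fitted log2 fold change of each gene with its standard error (bars) in the 4 pairwise comparisons, from edgeR, with Marco as a black square and the Cd163 point, open, from the fit without the filter. The C1q genes sit between 2.68 and 2.80 and Marco at -5.47 for bleomycin versus PBS in control mice, and no value passed the adjusted threshold.

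Other lists put these values in context. All 15 alveolar macrophage genes, Marco included, were fitted lower in control mice after bleomycin, where 5821 of all 10481 genes were. Of the 15, 6 were lower with an unadjusted p under 0.05, as were 836 of the 10481. Their median log2 fold change was -1.98 against -0.06 over all genes. All 13 macrophage genes kept were also fitted lower, with a median of -1.17, and Lyz2, lysozyme, the highest of them, had -1.17 ± 0.67 (adjusted p = 0.418). All 12 fibroblast genes kept were fitted higher, where 44.5% of all genes were, with a median of 2.57. The 15 interstitial genes kept that are not among the 9 were split, with 9 higher and 6 lower and a median of 0.40. The 3 of 15 with an unadjusted p under 0.05, where 14.3% of all genes had one, were all higher: F13a1, coagulation factor XIII A, at 2.5, Gas6, a ligand of Mertk, at 3.01 and the scavenger receptor Stab1 at 1.56. No gene of any of these lists passed an adjusted p of 0.05. The lists were chosen with earlier results of these data known, Marco's fall among them. These counts are therefore a description and no independent support.

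The other complement genes did not share one direction with C1q. Of 25 listed, 20 were kept, 9 fitted higher and 11 lower in control mice after bleomycin, with a median of -0.09. Masp1, a protease of the lectin pathway, had 3.34, while C3, the central component, had -2.13 and Cfb, factor B of the alternative pathway, -3.51, and these 3 of 20 were the ones with an unadjusted p under 0.05, a share close to the 14.3% of all genes. Clu, clusterin, the most abundant of the list, had -1.13 ± 1.36. Of 12 genes of lipid handling around Apoe, 3 were fitted higher and 9 lower, with a median of -0.60. Lpl, lipoprotein lipase, had -3.12, with an unadjusted p under 0.05. Lipa, lysosomal acid lipase, had -1.55 ± 0.78. None of these passed after adjustment.

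CKO and control mice were compared after bleomycin to ask whether the deletion changed these genes in injured lungs. C1qa had a log2 fold change of 0.01 ± 1.44 (adjusted p = 0.997, edgeR), an error too wide to show that the groups were alike. Without the libraries whose sex genes go against their labels it was -1.41. Marco was at 23.7, 4.45, 729 and 479.8 CPM in CKO bleomycin, with the 2 low values in those same libraries, and its log2 fold change against control bleomycin was 3.92 ± 1.30 (adjusted p = 0.208; 0.0182 with DESeq2). The value for Marco was 4.74 without those libraries and 1.56 with number series as a covariate. Ms4a7 was at 1.47 ± 1.44, Folr2 at 1.83 ± 1.63 and Cx3cr1 at -1.89 ± 0.94 (adjusted p = 0.259). Cx3cr1 passed the filter only through control bleomycin, where it was higher, so its value is no support for a difference. None of the 9 had an unadjusted p under 0.05, where 20.2% of all genes had one, none passed after adjustment, where again 0% of all genes did, and 7 of the 8 kept were fitted higher, where 50.7% of all genes were. The C1q chains among the 7 are not independent of one another, and the gene fitted lower was Cx3cr1. C1qa, at 0.01, turned direction in 5 of 14 other settings and in 5 of 17 fits that left out 1 mouse. This count is therefore not read as a tendency. The fitted macrophage genes were all higher in this comparison (13 of 13, median 1.34) and the fibroblast genes all lower (12 of 12, median -3.61). With macrophage genes as a covariate C1qa was at -1.59, and with fibroblast genes as a covariate at 0.75.

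After PBS the values of C1qa and Folr2 in CKO versus control rested on CKO PBS mouse 5. The log2 fold change was 3.42 ± 1.55 for C1qa, 3.37 ± 1.52 for Ms4a7 and 3.57 ± 1.71 for Folr2, with an adjusted p of 1.00 for each (edgeR). Without CKO PBS mouse 5 the values were -0.37 for C1qa and -0.49 for Folr2, while Ms4a7, also high in CKO PBS mouse 1, was at 2.49. C1qa and Ms4a7 were the 2 of the 9 genes with an unadjusted p under 0.05, where 1.99% of all genes had one, and 7 of the 8 kept were fitted higher, where 46.4% of all genes were. Here too the C1q chains among the 7 are not independent of one another. Marco was 99.9, 264, 837, 490.4 and 243 CPM in CKO PBS, inside or below the range of control PBS, with a log2 fold change of -1.23 ± 1.09. In mouse 5, the high C1q library, Marco was at 243 CPM, near the group's median of 264.

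Between bleomycin and PBS in CKO mice, C1qa had a log2 fold change of -0.70 ± 1.39 and Marco -0.32 ± 1.10. None of the 9 had an unadjusted p under 0.05 here, where 0.964% of all genes had one. Without CKO PBS mouse 5, C1qa was at 3.08, and without the libraries whose sex genes go against their labels it was at -2.94 and Marco at 0.62. The interaction of genotype and bleomycin, which asks whether bleomycin acted differently in the 2 genotypes, was -3.40 ± 2.06 for C1qa and 5.15 ± 1.67 for Marco, with an adjusted p of 0.916 for each (edgeR). An unadjusted p under 0.05 was found for none of the 9 and for 3.46% of all genes. The interaction for C1qa was 0.38 without CKO PBS mouse 5, and without the libraries whose sex genes go against their labels it was -4.86 for C1qa and 5.97 for Marco.

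Within each library, C1qa was set against Marco. C1qa was above Marco in 6 of 17 libraries, by counts and per kilobase of exon alike: none of 4 in control PBS, 3 of 4 in control bleomycin, 1 of 5 in CKO PBS and 2 of 4 in CKO bleomycin. The ratio of C1qa to Marco counts, not divided by length, was 0.00514 to 0.0814 in control PBS and 0.533 to 17.9 in control bleomycin. It was 0.0239 to 3.88 in CKO PBS and 0.0424 to 34.8 in CKO bleomycin. In CKO bleomycin the ratio split by library, at 11.9 and 34.8 in mice 1 and 2, whose sex genes go against their labels, and 0.0464 and 0.0424 in mice 3 and 4. All control bleomycin mice and CKO bleomycin mice 1 and 2 also share animal numbers starting with 12. CKO bleomycin mice 3 and 4, control PBS mice 2 to 4 and CKO PBS mice 3 to 5 have numbers starting with 11. CKO PBS mice 1 and 2 and control PBS mouse 1, with numbers starting with 12, had ratios of 0.0716, 0.0670 and 0.0481. The labels do not say what these numbers stand for.

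**Figure D3:**
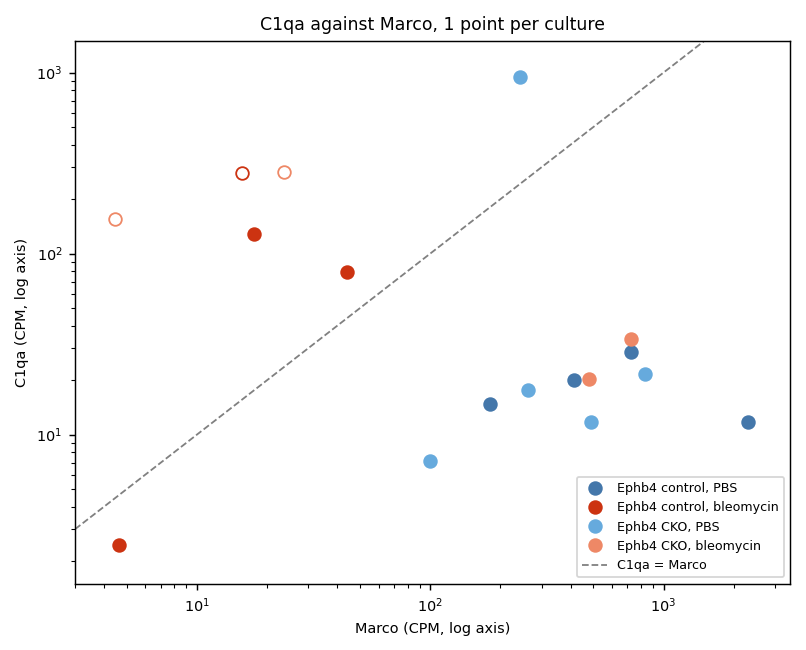
C1qa against Marco in each of the 17 libraries (CPM, both axes logarithmic), coloured by group, with open circles for the 3 libraries whose sex genes go against their labels. The control PBS libraries lie at high Marco and 11.8 to 28.7 CPM of C1qa, and control bleomycin mouse 1 is low in both.

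On the scale of log2 CPM minus that of Marco, C1qa differed between control bleomycin and control PBS by 6.81 (2-sided exact permutation p = 0.0286, the smallest that 4 against 4 mice allow; adjusted p = 0.147 over 36 tests). The differences were 6.81 for C1qb, 6.63 for C1qc, 6.68 for Cx3cr1, 5.41 for Ms4a7, 5.23 for Apoe and 5.23 for Folr2, and for these 7 genes the groups did not overlap. The value of Cx3cr1, which passed the filter only through control bleomycin, is no support for a difference. Mrc1 differed by 3.74 and Cd163 by 5.57, and both overlapped (exact permutation p = 0.0571). Of the 10480 genes other than Marco, 96.8% also lay wholly higher relative to Marco after bleomycin, so this separation is not particular to these genes. Marco's own fall was known from earlier results of these data and enters every difference. The p-values of this comparison are therefore no support for a change in the 9 genes. Without the libraries whose sex genes go against their labels the difference for C1qa was 6.00. In the other 3 comparisons each of the 9 genes overlapped on this scale. For C1qa the difference was -1.82 (exact permutation p = 0.571) between CKO and control after bleomycin, 1.78 (p = 0.452) after PBS and 3.20 (p = 0.214) between bleomycin and PBS in CKO mice.

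The same values were taken relative to the mean log2 CPM of the macrophage genes, a measure of change per macrophage RNA. In control mice after bleomycin C1qa was higher by 2.83 (exact permutation p = 0.0571, adjusted p = 0.686 over 40 tests), C1qb by 2.84 and C1qc by 2.65 (p = 0.0857 for each), with overlap through single libraries. Marco was lower by 3.97 (exact permutation p = 0.0286) with no overlap, which 0.114% of genes showed in that direction, while 3.4% showed no overlap in the other. Marco's change was known from earlier results of these data, so its p and this share are no independent support. Mrc1 differed by -0.23 (exact permutation p = 0.914). Ms4a7, Apoe and Folr2 lay between 1.25 and 1.43, each with overlap. In the fits that left out 1 mouse, the lowest adjusted exact permutation p for C1qa was 0.286. Without control bleomycin mouse 1, through which the C1qa groups overlapped, the difference was 3.54 for C1qa and 0.57 for Mrc1. Without the libraries whose sex genes go against their labels it was 2.32 for C1qa, -0.41 for Mrc1 and -3.68 for Marco. None of the 40 tests passed after adjustment.

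**Figure D4:**
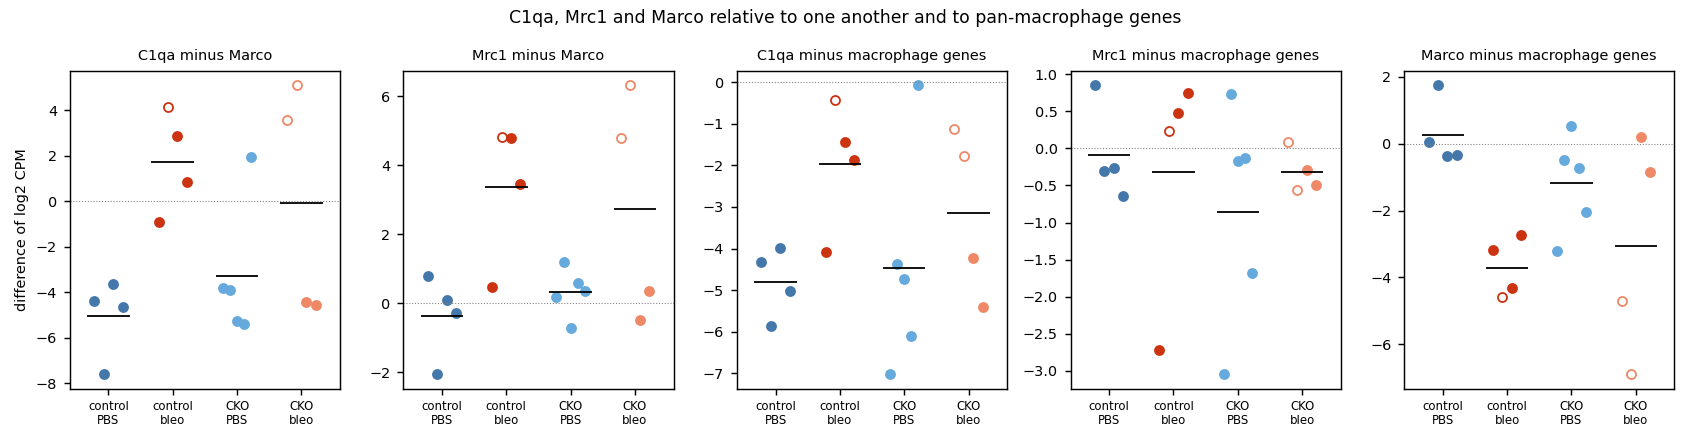
Log2 CPM of C1qa and of Mrc1 minus that of Marco, and of C1qa, Mrc1 and Marco minus the mean of the macrophage genes, in every library (points) by group, with black bars for group means and open circles for the 3 libraries whose sex genes go against their labels. C1qa minus Marco is higher in all control bleomycin than in all control PBS libraries, as it is for 96.8% of genes other than Marco. Mrc1 minus Marco overlaps. Relative to the macrophage genes C1qa differs by 2.83 with overlap and Marco by -3.97 without.

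Across the 17 libraries, 27 relations of the 9 genes were computed, with Marco, with the macrophage genes and with the fibroblast genes, on log2 CPM with permutation tests. C1qa and Marco gave Pearson's r = -0.28 (permutation p = 0.281, adjusted p = 0.607) and Spearman's rho = -0.28 (permutation p = 0.268, adjusted p = 0.602). Without the 2 libraries farthest from the median of Marco, r was -0.58 (permutation p = 0.0214, adjusted p = 0.141). With group means removed r was -0.13, and within the animals numbered from 11 and from 12 it was -0.42 (n = 8) and -0.24 (n = 9). Without the libraries whose sex genes go against their labels it was 0.07 (n = 14), and without control bleomycin mouse 1 it was -0.60, so the value rested on a few libraries in both directions. Mrc1 and Marco gave r = 0.49 (permutation p = 0.0283, adjusted p = 0.255) and rho = 0.53 (permutation p = 0.0312, adjusted p = 0.281), with r = 0.21 without the 2 farthest libraries, 0.44 with group means removed, 0.67 and 0.47 within the 2 number series, and 0.71 without the libraries whose sex genes go against their labels. The r with Marco was 0.02 for Apoe, -0.08 for Ms4a7, -0.11 for Cx3cr1 and -0.14 for Folr2. The median r of all kept genes with Marco was 0.05, and 15.7% of genes had a higher r than Mrc1 and 72.0% a higher r than C1qa.

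Ms4a7 and the macrophage genes gave r = 0.70 (permutation p = 0.000880, adjusted p = 0.0238), the only one of the 27 relations to pass after adjustment, and rho = 0.62 (permutation p = 0.00977, adjusted p = 0.218), which did not. It gave r = 0.52 (adjusted p = 0.223) without the 2 farthest libraries, and within the animals numbered from 11 and from 12 it was 0.71 and 0.89. The r of Mrc1 with the macrophage genes, 0.74 (permutation p = 0.0275, adjusted p = 0.255), became -0.28 without the 2 farthest libraries and so rested on them.

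Among the 9 genes, those nearest to the mean log2 CPM of the C1q genes were Folr2 (r = 0.86) and Apoe (r = 0.81), followed by Ms4a7 (0.60), Mrc1 (0.47), Cx3cr1 (0.26) and Cd163 (-0.07), as a description over the same 17 libraries. Without the 3 libraries whose sex genes go against their labels r was 0.79 for Folr2, 0.74 for Apoe, 0.51 for Ms4a7, 0.48 for Mrc1, 0.52 for Cx3cr1 and -0.40 for Cd163 (n = 14). Of all kept genes 0.0763% had a higher r with the C1q mean than Folr2, 0.191% than Apoe and 6.13% than Mrc1. The 5 other genes nearest to the C1q mean were Kcnk13, a potassium channel known from microglia (r = 0.94), Il6ra, the interleukin-6 receptor (0.88), Sash1 (0.87), Ms4a6b, a relative of Ms4a7 (0.87), and Ids, a lysosomal sulfatase (0.87). The 5 nearest to Marco were Zfp608 (r = 0.93), Chpt1, an enzyme of phosphatidylcholine synthesis (0.91), Cryzl2 (0.90), Adgb (0.90) and Acp5, the tartrate-resistant acid phosphatase (0.90). Without those 3 libraries these r lay between 0.82 and 0.93 for the C1q set and between 0.86 and 0.95 for the Marco set. The 2 sets had no gene in common. This follows from the r of -0.28 to -0.24 between the C1q genes and Marco, since no gene can lie this near to both.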

How the data were processed

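Total RNA-Seq of 17 primary lung fibroblast cultures, 1 per mouse, was analysed from a deposited table of whole-number counts per gene, and groups were taken from the sample labels. The authors trimmed reads of 75 bp with cutadapt (version 1.18 per the submitters' processing notes; the study's methods name another), aligned them to GRCm38 with HISAT2 2.1.0 and derived the deposited counts from StringTie coverage, so overlapping transcripts share reads by estimate. These counts carry no normalization.

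Here TMM-scaled CPM was computed, genes over 10 CPM in at least 2 libraries were kept, and edgeR 4.0.16 (R 4.3.3) quasi-likelihood tests were fitted with 1 mean per group over all 17 libraries, with Benjamini-Hochberg adjustment. The study's batch numbers are not given per library and were not used. Log2 CPM used a prior count of 2. Differences to Marco or to macrophage genes were tested by 2-sided exact permutation, and correlations by 100000 permutations. Gene positions came from GENCODE, and promoter windows from RefSeq. The edgeR fit was tested on simulated counts for bleomycin versus PBS in control mice only. Recovery of set changes was required only at a spread between libraries below the one fitted here (common dispersion 0.311). Alternatives included DESeq2 1.42.0 and limma 3.58.1 voom. A set of 8 abundant noncoding genes took 18.1% to 35.2% of the counts. Named genes were the 9 genes, Marco, Ephb4, the gene lists with their most abundant gene, and the 5 genes nearest to C1q and to Marco; list genes with an unadjusted p under 0.05 and the levels of listed interstitial genes were named after their values were seen. The 9 genes, Marco and the lists were chosen with earlier results of these data known, Marco's own change among them. P-values measure the spread between the mice of these libraries. The result of 1 listed gene is not reported here.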

Additional observations from a re-analysis of the deposited data

Results flagged for a closer look

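The highest and lowest library of each gene was compared with the rest of its group in 40 groups of 4 or 5 libraries. The measure was the gap to the nearest library divided by the group's range, both on log2 CPM with a prior count of 2. Chance flags about 1 in 20 groups. C1qa in CKO PBS stood out through mouse 5 (944 CPM), with a gap of 0.774 of the range. Folr2 did so through the same mouse (89.0 CPM), with 0.783. Mrc1 in control bleomycin stood out through mouse 1 at the low end (6.34 CPM), with 0.975. Cd163 in CKO bleomycin did so through mouse 3 (0.750 CPM), with 0.896, at a level where few counts were present.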

How the results depend on the processing

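No paired analysis was possible because the replicate numbers were given in accession order and pair no mice. None of the 9 genes passed an adjusted p of 0.05 in any comparison under any setting run; DESeq2 called 166, 399, 1 and 1 genes, none of them among the 9, for bleomycin in control, CKO after bleomycin, CKO after PBS and bleomycin in CKO mice, where edgeR and limma voom called 0. Marco passed with DESeq2 in the first (adjusted p = 0.000236) and the second (adjusted p = 0.0182). The fold change of C1qa for bleomycin in control mice was positive throughout.

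Directions that turned, for bleomycin in control mice: Mrc1 0.15 with macrophage and 0.28 with fibroblast genes as covariate; Ms4a7 -0.034 (voom), -0.00075 (number series as covariate) and -0.87 without the 3 libraries against their labelled sex; Apoe -0.055 (voom) and -0.27 (without those libraries); Folr2 -0.17 (voom) and -0.063 (column runs as covariate). For CKO versus control after bleomycin, C1qa was -0.016 with upper quartile scaling or with number series, -0.022 without a filter, -1.59 with macrophage genes as covariate and -1.41 without the 3 libraries, and Ms4a7 was -0.68 with macrophage genes. For bleomycin in CKO mice, C1qa was 1.19 (voom), 0.068 (sex), 0.43 (macrophage genes) and 0.19 (column runs), and Marco 0.62 without the 3 libraries. The cause of these turns was not tested. Column runs are the 2 alphabetical runs of columns in the table, whose meaning is not stated.

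Leaving out each mouse in turn gave, for bleomycin in control mice, -0.90 to 2.14 for Ms4a7, -0.29 to 1.43 for Apoe and -1.25 to 1.96 for Folr2, each lowest without control bleomycin mouse 2. It gave -0.81 to 0.81 for C1qa in CKO versus control after bleomycin, -0.37 to 3.77 for C1qa and -0.49 to 4.41 for Folr2 after PBS, -1.52 to 3.08 for C1qa and -1.19 to 0.17 for Marco for bleomycin in CKO mice, and -4.22 to 0.38 for C1qa in the interaction. The number of genes with an unadjusted exact permutation p under 0.05 relative to Marco was 7. It ran from 3 (without control PBS mouse 2) to 8 (without control bleomycin mouse 1). Relative to macrophage genes this number was 1, ran from 1 to 4 (without control bleomycin mouse 1), and was 2 with their median. These are counts of p and not of overlap, and fewer mice leave fewer possible values of p. Mrc1 relative to macrophage genes ran from -0.59 to 0.57.

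The single relation past adjustment became 0 without the 2 farthest libraries, within number series 11, within either column run, without the 3 libraries, and, leaving out a mouse, ran from 0 to 1 (0 without CKO PBS mouse 1 or 5, control PBS mouse 3 or control bleomycin mouse 1). The fits within column runs, without the 3 libraries and without each mouse were chosen for the relations, and r with the C1q mean without the 3 libraries was added, after seeing the data. Without the 3 libraries r with Marco was 0.065, 0.088 and 0.12 for C1qa, C1qb and C1qc, and Mrc1 with macrophage genes was -0.28 without the 2 farthest libraries. The C1qc to C1qa ratio was 1.00 when counts were not divided by length. Folr2 without the 3 libraries, and Cx3cr1 without control bleomycin mouse 3 or 4, fell under the filter and gave no value. Depth limits Cd163, which had at most 135 counts.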
